A study of Homo sapiens with 17 samples.

Results

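Chromatin at 10 genes of nucleic acid sensing was examined in HCC1954, an established HER2-positive line of human breast cancer cells. The 10 genes came from a list of names, and all 10 were found among the 38147 protein-coding and lncRNA genes of the RefSeq table for hg38. They comprise 6 genes of RNA sensors and RNA-binding effectors (IFIH1, DHX58, TLR3, EIF2AK2, ADAR and ZBP1) and 4 genes of the adaptors, the DNA sensor and the kinase (MAVS, CGAS, STING1 and TBK1). Both arms of the study, NC1235 and Si1235, were HCC1954 cells transfected with antisense oligonucleotides (ASOs) and fixed with formaldehyde 72 hours later. The labels name the arms without spelling out NC or Si. LINC01235, a long non-coding RNA, is named in the title of the series. Every sample is of this 1 cell line, the labels name no clone, and no untransfected cells are analysed here, so what both arms share was not compared with cells that received no oligonucleotide. Each arm had 2 libraries for H2AZ, H3K27ac and H3K36me3 and 1 library for H3K9ac. ChIRP, or chromatin isolation by RNA purification, uses antisense probes to pull down an RNA with the DNA near it. The only ChIRP library carries NC1235 in its title, and the labels do not say which RNA was captured.

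Cells recognise foreign or misplaced nucleic acid with a small set of receptors. IFIH1 and its relative RIGI bind RNA of viral type in the cytosol and signal through MAVS on mitochondria. TLR3 binds double-stranded RNA in endosomes and uses an adaptor other than MAVS. CGAS binds DNA and makes a cyclic dinucleotide that activates STING1. These routes meet at the kinase TBK1, which activates the transcription factor IRF3 and so interferon genes, and many of the sensors are themselves interferon-induced. Epithelial and tumour cells carry much of this machinery. Of the chromatin features measured, the histone variant H2A.Z (H2AZ in the labels) and the acetylations H3K27ac and H3K9ac lie at active promoters, and H3K36me3 lies along the bodies of transcribed genes.

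The promoter sequences of 5 of the genes are shown because the promoter marks were read over them and because they differ in 1 motif, GAAA and GAAA with any 2 bases between, the core of the interferon-stimulated response element. The stretches run from 170 bases before to 30 bases after the RefSeq start, 5′ to 3′ on the gene's strand (hg38, RefSeq GRCh38.p14). Capitals mark every match to this motif or to its reverse complement, TTTC and TTTC with any 2 bases between. IFIH1 lies at chr2:162318655-162318854 (minus strand), EIF2AK2 at chr2:37156951-37157150 (minus strand), TLR3 at chr4:186068986-186069185 (plus strand), MAVS at chr20:3846664-3846863 (plus strand) and TBK1 at chr12:64451950-64452149 (plus strand).
IFIH1: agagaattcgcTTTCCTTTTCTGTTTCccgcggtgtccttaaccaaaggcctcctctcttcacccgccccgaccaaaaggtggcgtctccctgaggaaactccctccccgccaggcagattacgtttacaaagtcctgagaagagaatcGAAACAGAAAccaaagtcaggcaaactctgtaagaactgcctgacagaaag
EIF2AK2: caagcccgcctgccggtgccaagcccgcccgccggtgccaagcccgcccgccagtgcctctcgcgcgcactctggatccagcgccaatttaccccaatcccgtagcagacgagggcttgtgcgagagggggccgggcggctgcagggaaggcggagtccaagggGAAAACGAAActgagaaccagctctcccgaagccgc
TLR3: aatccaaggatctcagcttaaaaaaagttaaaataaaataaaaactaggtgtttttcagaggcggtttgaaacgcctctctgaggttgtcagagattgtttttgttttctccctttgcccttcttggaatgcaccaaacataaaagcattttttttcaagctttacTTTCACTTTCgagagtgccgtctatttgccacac
MAVS: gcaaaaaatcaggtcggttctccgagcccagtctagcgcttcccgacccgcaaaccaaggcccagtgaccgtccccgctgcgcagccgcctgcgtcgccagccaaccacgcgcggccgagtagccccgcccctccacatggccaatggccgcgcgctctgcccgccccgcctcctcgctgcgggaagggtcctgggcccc
TBK1: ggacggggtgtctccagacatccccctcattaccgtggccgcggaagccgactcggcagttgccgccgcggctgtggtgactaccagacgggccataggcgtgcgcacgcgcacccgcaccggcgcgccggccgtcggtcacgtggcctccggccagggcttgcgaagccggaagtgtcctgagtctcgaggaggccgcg

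IFIH1 held a match on its own strand at −21 to −12 from the start, and a pair of overlapping matches on the other strand at −159 to −150 and −153 to −144. EIF2AK2 held 1 match at −6 to 4, across the start itself. TLR3 held 1 match on the other strand at −4 to 6, also across the start. MAVS, TBK1 and the 3 listed starts of ADAR held none within the table's span of 250 bases before to 50 bases after the start. Over that span 3.57% of all 35116 RefSeq promoters, and 4.38% of the 27305 genes they belong to, held a match on either strand. The same spans differed in CpG content. IFIH1 held 12 CpG, TLR3 held 5 and ADAR held 14, against 30 in EIF2AK2, 34 in MAVS and 35 in TBK1. DHX58, ZBP1, CGAS and STING1 are named without sequence. A match is a description of letters and does not show binding.

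The values are percentages of cover, the share of a window that lies under called peaks. For H2AZ, H3K27ac and H3K9ac the window ran 1 kb to either side of the gene start, and for H3K36me3 it was the gene body. The start came from the RefSeq promoter table for 6 genes and, for DHX58, ZBP1, CGAS and STING1, from the gene end with more cover of the other promoter marks. Cover says where a mark was called and not how high it stood, and it cannot exceed 100%. The 4 lists of H2AZ had 42759 to 51229 peaks, those of H3K27ac 44836 to 48391 and those of H3K36me3 67302 to 81320. H3K9ac had 59945 and 60035 peaks, and ChIRP had 128273. Read depth is not stated in these lists. Replicate 2 covered less of the genome than replicate 1 in H2AZ (37.7 against 45.5 Mb in NC1235, 35.8 against 44.8 Mb in Si1235) and in H3K36me3 (117.6 against 144.1 Mb, 124.0 against 140.6 Mb). Whole-number read pileups could be solved for 0.7% and 12.7% of weak peaks in the NC1235 H3K27ac lists and for 99.9% or more in every other list, so that feature of peak calling moves with the arm in H3K27ac, and its part in the H3K27ac results below was not tested. All 7 epithelial and HER2 markers had H3K27ac in all 4 libraries, at a summed cover of 643.4 to 653.8% in NC1235 and 634.3 to 647.4% in Si1235. For H3K36me3, 6 of these 7 had peaks in all 4 libraries and KRT19 was at 0 in all 4. Of 5 immune markers, PTPRC and LYZ were at 0 for H3K27ac in all 4 libraries, 3 had cover in all 4 with sums of 60.2 to 109.6% in NC1235 and 131.0 to 135.6% in Si1235, and none had any H3K36me3. Of 4 fibroblast markers, 1 had H3K27ac in all 4 libraries and none had H3K36me3. Of 4 endothelial markers, 1 had H3K27ac in all 4 libraries. For H3K36me3, 1 endothelial marker had peaks in all 4 and 2 were at 0 in all 4. Nothing in the labels says that the replicates came from separate cultures, and the p-values therefore measure a spread that may be technical.

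In both arms most of the 10 genes carried active promoter marks, and their gene bodies split into marked and unmarked. H2AZ and H3K27ac covered part of the start window of 9 genes in at least 1 library, all but ZBP1. Of the 38147 genes, 17955 had any H2AZ and 15885 any H3K27ac in that window, while 6761 and 6463 had no window. The starts of DHX58, CGAS and STING1 were placed by the other promoter marks, so cover there is partly built in. H3K36me3 covered 25.4% or more of the body of 6 genes in every library (IFIH1, EIF2AK2, ADAR, MAVS, TBK1 and STING1), and none was called over TLR3, CGAS or ZBP1 in any library. Over all 18723 gene bodies, 10607 had some H3K36me3 in at least 1 library. The mean H3K36me3 cover over the 4 libraries was highest at EIF2AK2 (87.9%), above that of 96.6% of tested genes, and lowest among the 6 at STING1 (30.9%), above that of 39.0%. Between them lay TBK1 at 73.0%, MAVS at 70.1%, IFIH1 at 68.0% and ADAR at 56.8%, where neighbours in that order overlapped in their libraries, while EIF2AK2 lay above and STING1 below all of them. TLR3 and CGAS thus had promoter marks without H3K36me3.

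Between the arms no difference at any of the 10 genes passed the test (limma on cover, Benjamini-Hochberg adjustment over all genes tested, threshold 0.05). For H2AZ 0 of 9 tested passed, for H3K27ac 0 of 9 and for H3K36me3 0 of 6, where 0.0%, 0.441% and 0.0% of all genes did. At an unadjusted p under 0.05, 0, 1 and 1 of them did so, against 5.94%, 14.0% and 7.94% of 17359, 15411 and 8349 genes. The test had little power in simulated data. In cover simulated with the spread of these libraries, it recovered 0, 0 and 6 of 100 differences of 20 points. Of 100 differences of 60 points it recovered 6, 70 and 71. These differences were placed only at genes of intermediate mean cover, and simulated cover was not held to 100%. The rates therefore do not describe windows that are nearly full or nearly empty, as several of the 10 genes had. The largest difference at the 10 genes was 19.1 points, so a failure to pass does not show that a gene was unchanged. Without passing the test, mean cover was mostly higher in Si1235. H2AZ was higher there at 8 of 9 genes, H3K27ac at 6 of 9 with 2 at 100% throughout, and H3K36me3 at 5 of 6. These counts include differences of 0.1 points at IFIH1 and 0.2 at ADAR for H2AZ, and 0.4 at ADAR for H3K27ac. After quantile normalization the sign turned at IFIH1 and ADAR for H2AZ, at ADAR for H3K27ac and at STING1 for H3K36me3. The share of all genes with a higher mean in Si1235 is not given here. Over all genes tested the median difference was itself above 0 for H2AZ and H3K36me3. The median difference, Si1235 minus NC1235, in the order H2AZ, H3K27ac and H3K36me3, was 3.38, 1.73 and 3.38 points, beside 1.22, 0.0 and 0.69 points over all genes tested. Both Si1235 libraries were above the higher NC1235 library at 3 of 9 genes for H2AZ, 3 of 9 for H3K27ac and 3 of 6 for H3K36me3, where 20.9%, 23.3% and 20.3% of all genes did so. The reverse order held for 1 gene in H2AZ and none in H3K27ac or H3K36me3, against 10.8%, 17.7% and 13.7% of all genes.

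**Figure D1:**
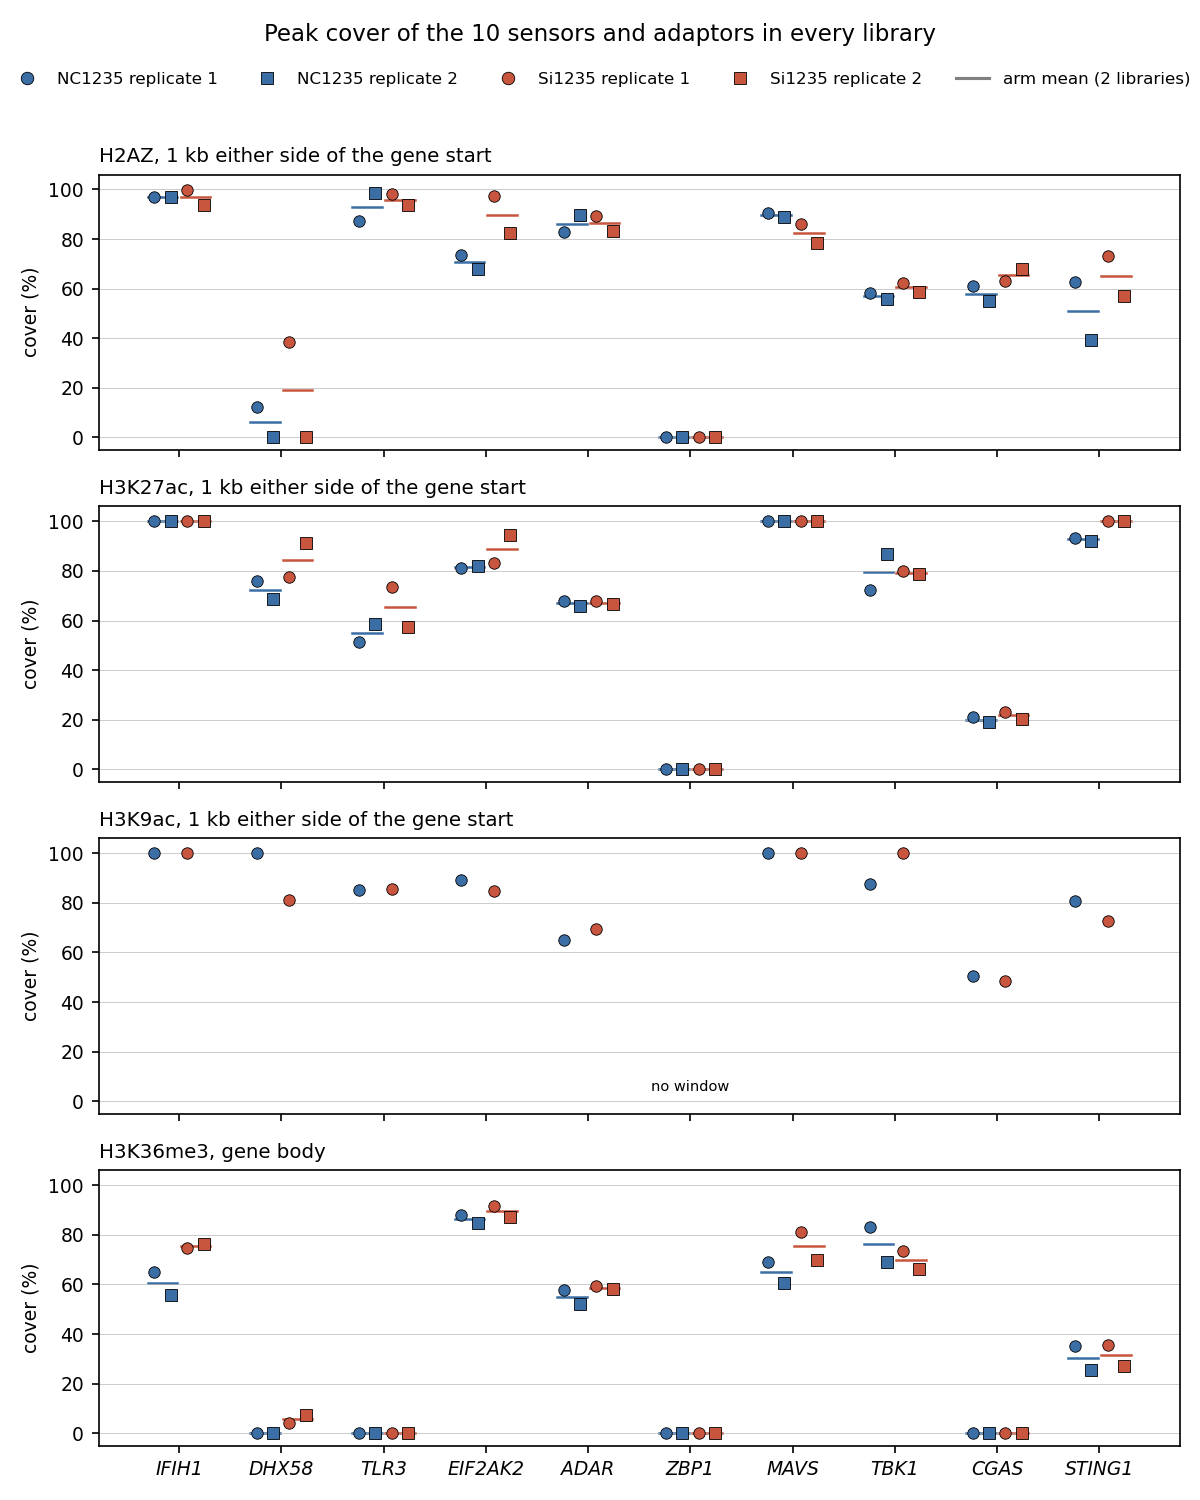
Percent of the window under called peaks (vertical axes) for the 10 genes in each library, for H2AZ, H3K27ac and H3K9ac at 1 kb either side of the gene start and for H3K36me3 over the gene body. Blue marks are NC1235, red marks Si1235, circles replicate 1, squares replicate 2, and short lines the arm means. IFIH1 and MAVS sit at 100% in every H3K27ac library, ZBP1 sits at 0, and H3K36me3 at IFIH1 lies at 55.7 to 65.2% in NC1235 and 74.7 to 76.4% in Si1235.

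IFIH1 (gene ID 64135, chromosome 2, 162267074 to 162318684, minus strand) encodes the helicase that binds long double-stranded RNA. H3K36me3 covered 65.2% and 55.7% of its 51.6 kb body in NC1235 and 74.7% and 76.4% in Si1235. Both Si1235 libraries were higher, by 15.1 points on average (95% interval 3.8 to 26.4; limma adjusted p = 0.459). Within replicate number 1 the difference was 9.5 points and within number 2 it was 20.8. The added cover lay along much of the gene: cover of the first 20% of the gene was 21.4% and 21.6% in NC1235 against 35.2% and 37.0% in Si1235, and of the middle 20% it was 42.9% and 32.5% against 59.0% and 68.3%. The last 20% was already at 96.9% and 83.5% in NC1235 and was at 100% in both Si1235 libraries. The first covered base lay 7.7 and 7.8 kb from the start in NC1235 and 2.4 kb from it in both Si1235 libraries. In Si1235 that base belonged to a small separate peak, at 2404 to 2689 and at 2365 to 2712 bases. Beyond such small peaks, longer peaks began at 7477 and 7517 bases in Si1235, near the 7664 and 7790 bases of NC1235. Of all genes tested for H3K36me3, 5.5% had a larger absolute difference than IFIH1.

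The IFIH1 start was under an H3K27ac peak in every library. The window of 1 kb either side was full at 100% in all 4. A full window does not show height. The fold enrichment of this peak, a linear ratio over local background, reached 43.61 and 32.7 for NC1235. For Si1235 it reached 89.47 and 77.92. This difference was not tested, nor was the part of the H3K27ac peak calling that moves with the arm. That peak ran from −1789 to 2063 bases and from −1707 to 1693 bases around the start in NC1235, and from −3069 to 1983 and −3028 to 2044 in Si1235. It was 3853 and 3401 bases wide in NC1235 and 5053 and 5073 in Si1235, where it took in a stretch that NC1235 libraries held as a separate small peak upstream. Over a window of 2.5 kb either side, H3K27ac cover was 81.7% and 70.3% in NC1235, against 89.7% and 90.9% in Si1235, 14.3 points higher (95% interval 2.0 to 26.5), with a limma adjusted p of 0.246 over all genes. H2AZ covered 96.8% of the 1 kb window in both NC1235 libraries and 99.9% and 93.9% in Si1235, so the arms overlapped. H3K9ac covered 100% in the library of each arm. GCA, a protein-coding gene that lies 79 bases away on the upstream side, shares this window. Its annotated body, 162318763 to 162375396, spans the upstream stretch that the Si1235 H3K27ac peak took in. The wider peak, its fold enrichment and the 2.5 kb difference therefore cannot be assigned to IFIH1 rather than GCA. GCA's own body held no H3K36me3 in any of the 4 libraries.

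DHX58 (gene ID 79132, chromosome 17, 42101411 to 42112714) encodes a helicase related to IFIH1 that lacks its signalling domain and tunes the other helicases. H3K36me3 over its 11.3 kb body was at 0 in both NC1235 libraries and at 4.0% and 7.5% in Si1235. That cover came from 1 peak of 450 bases in Si1235 replicate 1 and from peaks of 611 and 232 bases in replicate 2, at other positions, and the mean lay below the 5% needed for a test. KAT2A, which lies 397 bases from the DHX58 start, had H3K36me3 cover of 60% and 29.2% in NC1235 and 67.7% and 57.2% in Si1235 (limma adjusted p = 0.768). H3K27ac covered 76.0% and 68.6% of the DHX58 start window in NC1235 and 77.6% and 91.2% in Si1235. Both Si1235 libraries were higher, by 12.1 points (95% interval −10.0 to 34.2; limma adjusted p = 0.612), and most of that came from replicate 2 of Si1235. H2AZ was weak, at 12.4% and 0 in NC1235 and 38.6% and 0 in Si1235, called in replicate 1 of each arm alone. H3K9ac covered 100% in the NC1235 library and 81.0% in the Si1235 library.

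TLR3 (gene ID 7098, chromosome 4, 186069156 to 186088073, plus strand) encodes the endosomal receptor for double-stranded RNA. H2AZ covered 87.3% and 98.4% of its start window in NC1235 and 98.0% and 93.8% in Si1235, with overlapping arms (limma adjusted p = 0.949). Its H3K27ac cover was 51.4% and 58.8% in NC1235, against 73.6% and 57.4% in Si1235. Only Si1235 replicate 1 stood above the NC1235 libraries (difference 10.4 points, 95% interval −14.5 to 35.2; limma adjusted p = 0.706). H3K9ac was at 85.0% in NC1235 and 85.6% in Si1235. H2AZ reached wider than H3K27ac at TLR3, as it did at CGAS and ADAR, and the bodies of TLR3 and CGAS had no H3K36me3. TLR3 had the fewest CpG of the 6 genes with a promoter sequence, which do not include CGAS. A link between CpG and these marks was not tested.

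EIF2AK2 (gene ID 5610, chromosome 2, 37099210 to 37156980, minus strand) encodes the kinase that halts translation when it binds double-stranded RNA. H2AZ covered 73.5% and 67.8% of the window in NC1235 and 97.2% and 82.4% in Si1235, so the arms did not overlap. The difference was 19.1 ± 6.69 points (SE; 95% interval −0.8 to 39.1), with a limma adjusted p of 0.836, and 4.4% of tested genes had a larger one. It was 11.7 points when Si1235 replicate 1 was left out, and 0.0 in the window of 0.5 kb either side. It was 23.7 points within replicate number 1 and 14.6 within number 2. The H2AZ peak reached further at both edges in Si1235, with −840 to 629 and −826 to 530 bases in NC1235 and −984 to 959 and −920 to 727 in Si1235.

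H3K27ac at the EIF2AK2 window was 81.3% and 82.0% in NC1235, against 83.0% and 94.6% in Si1235, 7.2 points higher (limma adjusted p = 0.685). Over 2.5 kb either side it was 39.0% and 40.7% against 46.8% and 45.3%, 6.2 points higher (95% interval 1.1 to 11.3; limma adjusted p = 0.233). The single peak there was 1949 and 2036 bases wide in NC1235 and 2342 and 2266 in Si1235. H3K9ac went the other way over the 1 kb window, with 89.4% in the NC1235 library and 84.6% in the Si1235 library. H3K36me3 covered nearly all of the 57.8 kb body, at 87.9% and 84.7% in NC1235 and 91.6% and 87.3% in Si1235, with overlapping arms (difference 3.2 points; limma adjusted p = 0.853). The body overlaps GPATCH11 by 35 bases at its far end.

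ADAR (gene ID 103, chromosome 1, 154582057 to 154627997, minus strand) encodes the deaminase that edits double-stranded RNA and so limits its sensing by IFIH1. The arms were close in cover at ADAR. H2AZ covered 82.9% and 89.5% of the window in NC1235 and 89.4% and 83.4% in Si1235, a difference of 0.2 points (95% interval −11.2 to 11.6). H3K27ac covered 67.8% and 66.0% in NC1235 and 67.7% and 66.8% in Si1235, a difference of 0.4 points (95% interval −6.3 to 7.0). Limma gave an adjusted p of 1.0 for both marks. Fold enrichment of the ADAR H3K27ac peak stood further apart, with 25.67 and 21.2 for NC1235 against 42.95 and 35.65 for Si1235. At STING1 and TBK1 the fold enrichment of the H3K27ac peak overlapped between the arms. No difference in fold enrichment was tested. The part of the H3K27ac peak calling that moves with the arm was not tested either. H3K36me3 covered 57.8% and 52.3% of the 45.9 kb body in NC1235 and 59.2% and 58.0% in Si1235. The Si1235 libraries lay just above, by 3.6 points (limma adjusted p = 0.964). H3K9ac was at 65.0% in NC1235 and 69.6% in Si1235.

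The H3K36me3 of ADAR was split along the gene. The gene was cut into 5 equal parts. The second of these was at 0 in all 4 libraries, and the last 2 were at 100% in all 4. RefSeq lists another ADAR start 19.2 kb inside the gene, near the end of that bare stretch. H3K27ac covered 82.6% and 78.8% of the window around this inner start in NC1235 and 92.1% and 81.8% in Si1235. H2AZ covered 70.8% and 74.0% there in NC1235 and 77.1% and 72.2% in Si1235. Both starts were thus marked in every library of both arms. A lncRNA gene, LOC124904427, overlaps the outer start window.

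ZBP1 (gene ID 81030, chromosome 20, 57603852 to 57620426) encodes a sensor of left-handed nucleic acid that can trigger cell death. H2AZ and H3K27ac were at 0 over its 1 kb window, and H3K36me3 over its body, in every library. Within 2.5 kb, however, H3K27ac covered 36.6% and 36.9% in NC1235 and 42.1% and 33.4% in Si1235. H2AZ covered 34.5% and 36.6% of that wider window in NC1235 and 36.9% and 24.1% in Si1235. The peaks flanked the start on both sides, as in NC1235 replicate 1, where H3K27ac lay at −2206 to −1411 and at 1468 to 2836 bases. The end taken as the start had H3K9ac cover of 1.4% in NC1235 and 6.1% in Si1235, and the other end of the gene had 0 in both.

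**Figure D2:**
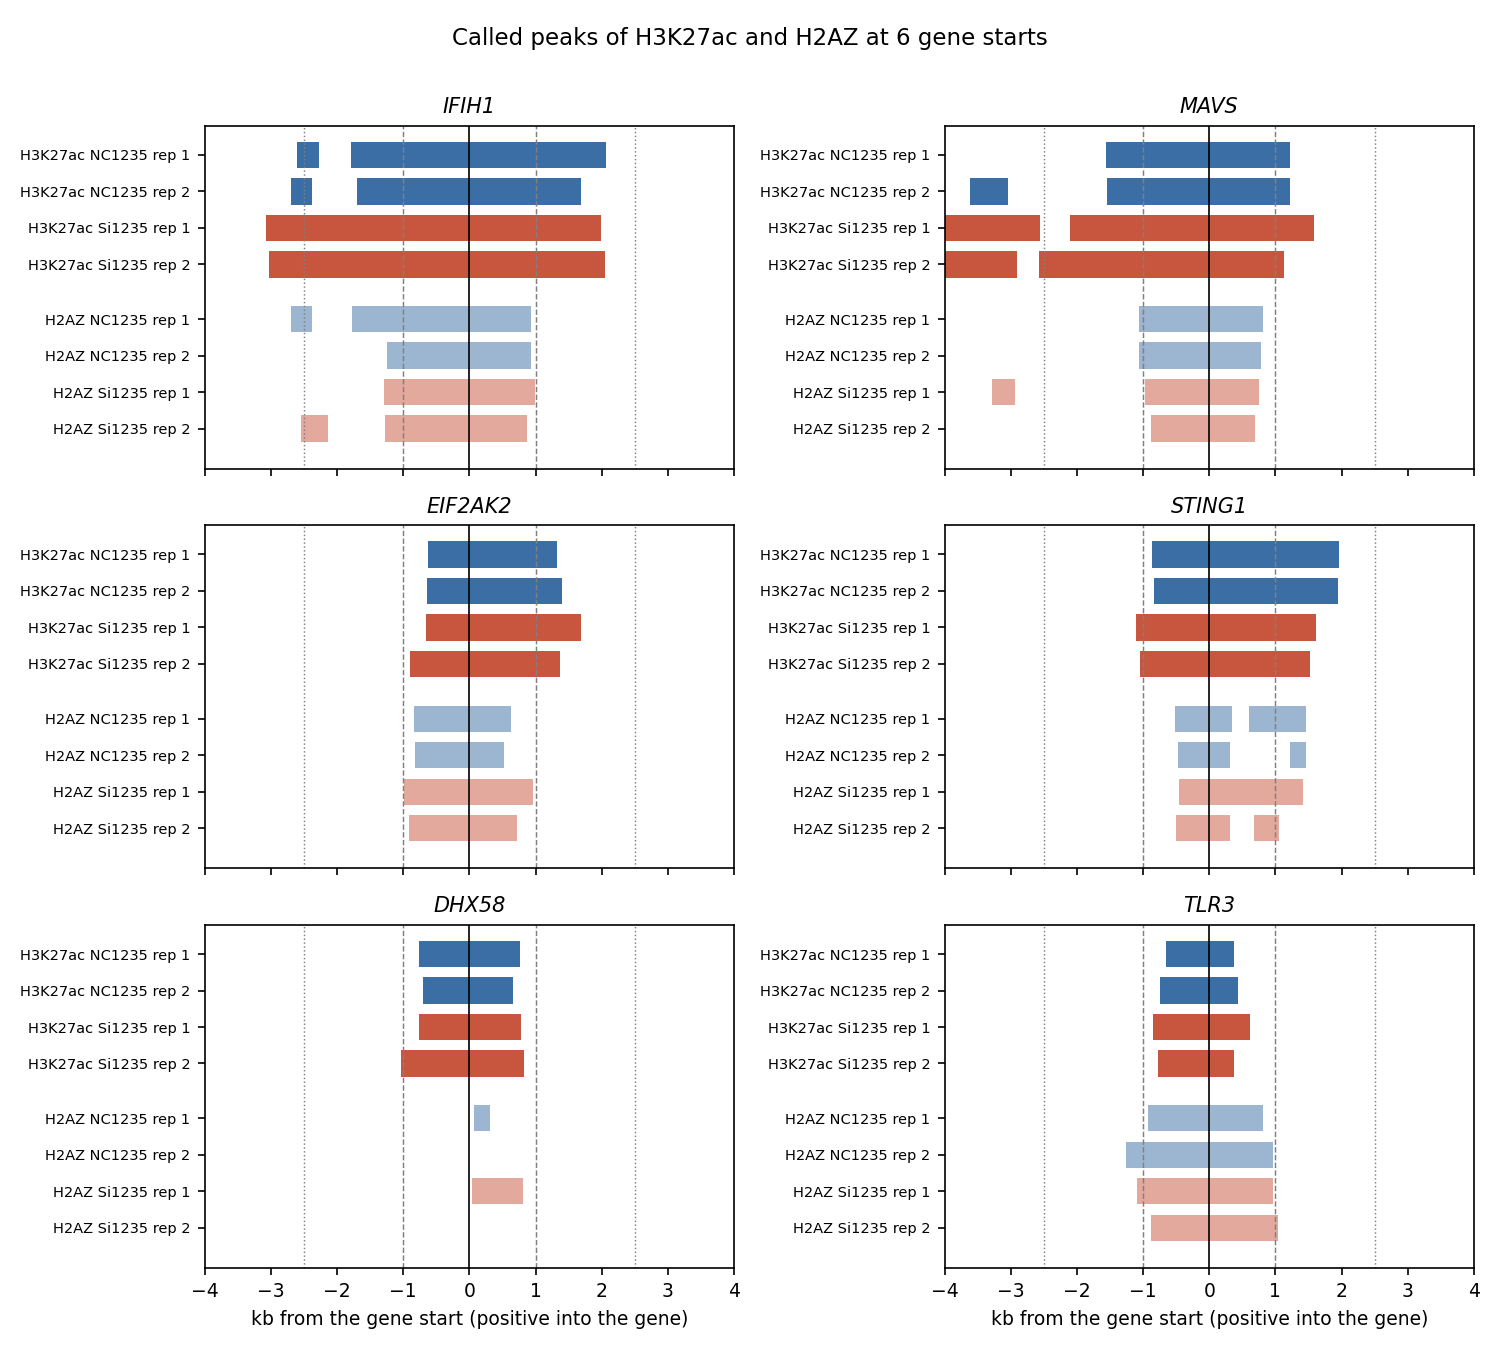
Called peaks of H3K27ac (dark bars) and H2AZ (light bars) at 6 gene starts, 1 row per library, blue for NC1235 and red for Si1235, with distance from the gene start in kb on the horizontal axis and positive values inside the gene. Dashed lines mark 1 kb and dotted lines 2.5 kb. The H3K27ac peak at the IFIH1 start reaches −3069 and −3028 bases in Si1235 and −1789 and −1707 in NC1235, where the upstream stretch lies within GCA. The H3K27ac peak of STING1 sits further upstream in Si1235.

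MAVS (gene ID 57506, chromosome 20, 3846834 to 3876118, plus strand) encodes the mitochondrial adaptor of RIGI and IFIH1. H3K27ac filled the 1 kb window in all 4 libraries, at 100%. The fold enrichment of that peak reached 62.96 and 65.68 for NC1235, against 108.9 and 80.18 for Si1235, and was not tested. Over 2.5 kb either side H3K27ac covered 55.7% and 55.5% in NC1235, against 73.6% and 72.6% in Si1235. The arms stood well apart there, by 17.5 ± 1.42 points (SE; 95% interval 13.4 to 21.6), and the limma adjusted p was 0.0769. In that wider window 4 of the 10 genes (IFIH1, DHX58, EIF2AK2 and MAVS) had both Si1235 libraries above both NC1235 libraries, where 29.4% of 15856 genes did. STING1 and TBK1 had both below, as did 19.9%, and 0.0252% of genes passed the test. The MAVS peak was 2784 and 2773 bases wide in NC1235 and 3680 and 3702 in Si1235.

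H3K36me3 covered 69.0% and 60.6% of the 29.3 kb MAVS body in NC1235 and 81.0% and 69.9% in Si1235. Both Si1235 libraries were higher, by 10.6 points (95% interval −1.8 to 23.1; limma adjusted p = 0.708), with 11.9 points within replicate number 1 and 9.3 within number 2. The difference was greatest at the 5′ end. The first 20% of the gene was covered to 10.1% and 5.4% in NC1235 and to 54.3% and 30.0% in Si1235, while the middle 20% was at 100% in all 4. H2AZ went the other way, with 90.6% and 88.9% in NC1235, against 86.1% and 78.4% in Si1235, and MAVS was the one gene of the 10 with both Si1235 libraries below (−7.5 points, 95% interval −18.0 to 3.0; limma adjusted p = 0.897). H3K9ac was at 100% in the library of each arm. IFIH1 and MAVS, a sensor and its adaptor, thus had full promoter acetylation windows and H3K36me3 that was higher in both Si1235 libraries without passing the test.

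**Figure D3:**
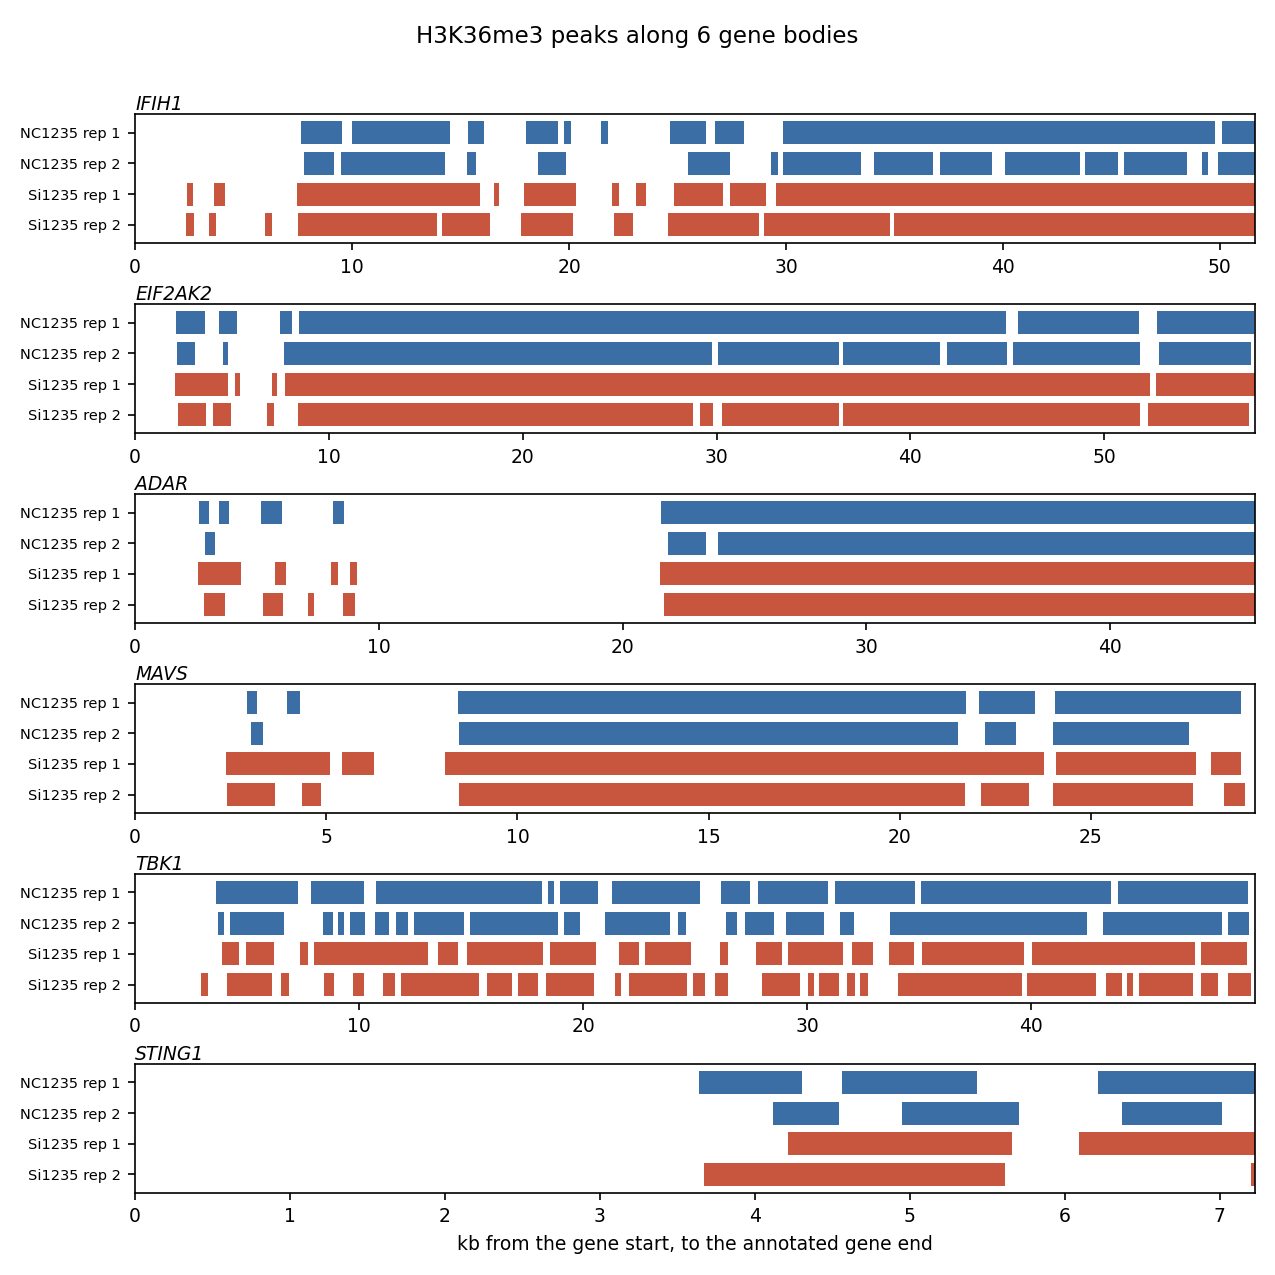
H3K36me3 peaks along the bodies of the 6 genes that were tested, drawn from the gene start (left) to the annotated end (right) in kb, 1 row per library, blue for NC1235 and red for Si1235. The Si1235 rows of IFIH1 begin 2.4 kb from the start with small separate peaks, and their longer peaks begin at 7477 and 7517 bases. The NC1235 rows of IFIH1 begin at 7.7 and 7.8 kb. The first 20% of MAVS is fuller in Si1235, and ADAR has a bare stretch in every row.

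CGAS (gene ID 115004, chromosome 6, 73423711 to 73452297) encodes the cytosolic DNA sensor. H2AZ covered 61.0% and 55.0% of its window in NC1235 and 63.0% and 68.0% in Si1235. Both Si1235 libraries were higher, by 7.5 points (95% interval −6.0 to 20.9; limma adjusted p = 0.902). H3K27ac was narrow there, at 21.2% and 19.0% in NC1235 and 23.2% and 20.4% in Si1235, with overlapping arms, and 7.8% of tested genes had a lower mean. H3K9ac covered 50.4% in NC1235 and 48.7% in Si1235. No H3K36me3 was called over the 28.6 kb body in any library.

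STING1 (gene ID 340061, chromosome 5, 139475533 to 139482758) encodes the receptor of the CGAS product. Over the 1 kb window its H3K27ac gave the lowest adjusted p of the 10 genes. Cover was 93.4% and 92.0% in NC1235 and 100% in both Si1235 libraries, a difference of 7.3 ± 0.57 points (SE; 95% interval 5.4 to 9.1) with a limma adjusted p of 0.0888. The full windows leave no spread in Si1235. The limma adjusted p was 0.00888 after quantile normalization of cover between libraries and 0.341 with the replicate block. The difference was 7.9 points when NC1235 replicate 1 was left out and 6.6 when NC1235 replicate 2 was. In those fits the only replicated arm is Si1235, which has no spread. The difference was 7.3 points when Si1235 replicate 1 or 2 was left out, and 0.0 in the 0.5 kb window. Over all alternatives the adjusted p was 0.00888 to 1.0. Over 2.5 kb either side the sign turned: cover was 56.5% and 55.8% in NC1235, against 54.5% and 51.5% in Si1235, 3.2 points lower (limma adjusted p = 0.499). The peak edges show both. The peak ran from −867 to 1957 and −840 to 1950 bases in NC1235 and from −1101 to 1621 and −1050 to 1522 in Si1235, further out upstream and shorter inside the gene. The called peak thus reached further upstream in both Si1235 libraries and was not wider there, at 2723 and 2573 bases against 2825 and 2791 in NC1235. Peak edges were not tested. The feature of H3K27ac peak calling that moves with the arm was not tested for its part in them.

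The other marks of STING1 overlapped between the arms or had 1 library. H2AZ covered 62.8% and 39.4% of the window in NC1235 and 73.0% and 57.2% in Si1235 (14.0 points, 95% interval −19.5 to 47.5; limma adjusted p = 0.902). That difference was 25.7 points when NC1235 replicate 1 was left out and 2.3 when NC1235 replicate 2 was. H3K36me3 covered 35.3% and 25.4% of the 7.2 kb body in NC1235 and 35.7% and 27.2% in Si1235, and it began 3.6 to 4.2 kb from the start. H3K9ac covered 80.7% in NC1235 and 72.8% in Si1235. A pseudogene, LOC101059986, lies 91 bases from the start and shares the window.

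TBK1 (gene ID 29110, chromosome 12, 64452120 to 64502114, plus strand) encodes the kinase on which the RNA and DNA routes converge. H2AZ covered 58.3% and 55.9% of its window in NC1235 and 62.1% and 58.8% in Si1235, both higher but by only 3.4 points (95% interval −7.3 to 14.0; limma adjusted p = 0.917). H3K27ac covered 72.4% and 86.9% in NC1235 and 80.0% and 78.6% in Si1235, with the Si1235 libraries between the NC1235 ones (limma adjusted p = 1.0). Over 2.5 kb either side both Si1235 libraries were lower, at 41.9% and 41.4% against 42.5% and 49.3% (limma adjusted p = 0.541). H3K36me3 covered 83.2% and 68.9% of the 50.0 kb body in NC1235 and 73.5% and 66.2% in Si1235. This was the one H3K36me3 difference of the 6 that was lower in Si1235, by −6.2 points (95% interval −19.1 to 6.7; limma adjusted p = 0.901), and its arms overlapped. H3K9ac covered 87.5% in NC1235 and 100% in Si1235.

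With 1 H3K9ac library per arm there is no replicate check for that mark. None of the 9 genes with an H3K9ac window differed by 20 points or more, where 7.83% of 17819 genes did (3.1% higher and 4.73% lower in Si1235). The greatest differences were −19.0 points at DHX58 and 12.5 points at TBK1. At DHX58, EIF2AK2, CGAS and STING1 the H3K9ac cover was lower in the Si1235 library while the mean H3K27ac cover was higher in Si1235.

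The ChIRP library had a peak in the body of 7 of the 10 genes, where 69.0% of 18723 gene bodies held one. EIF2AK2, TLR3 and TBK1 had none. Body cover was 14.8% at STING1, 7.4% at MAVS, 7.2% at ZBP1 and 1.2 to 3.8% at IFIH1, DHX58, ADAR and CGAS, beside a median of 1.49% over all gene bodies. With 1 library and no second arm, no comparison was possible for ChIRP.

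The other genes of the pathway were described in 5 lists with 104 genes. Among 21 other RNA sensors and effectors, 0 of 18 tested passed in any of the 3 replicated marks (limma). At an unadjusted p under 0.05, 4, 5 and 10 did for H2AZ, H3K27ac and H3K36me3, against 5.94%, 14.0% and 7.94% of all genes. Both Si1235 libraries were above both NC1235 libraries at 5, 8 and 9 of the 18 tested (20.9%, 23.3% and 20.3% of all genes). They were below both at 4, 0 and 2 (10.8%, 17.7% and 13.7% of all genes), and the median differences were −0.89, 1.55 and 7.42 points. RIGI, the sensor that shares MAVS with IFIH1, is named outside the rule for list genes and after its values were seen. It had H3K36me3 of 69.1% and 62.8% in NC1235 and 84.0% and 78.0% in Si1235 (limma adjusted p = 0.365), H3K27ac of 100% in all 4 and H2AZ of 89.6% and 93.8% against 100% and 97.4%. H3K36me3 over OAS2, an interferon-induced sensor of double-stranded RNA, was at 32.7% and 23.2% against 73.9% and 70.2%, and over IFIT1, which binds foreign RNA ends, at 17.5% and 12.3% against 58.3% and 48.7% (limma adjusted p = 0.128 for both). At the starts H2AZ was lower in both Si1235 libraries, with 65.6% and 39.7% against 27.2% and 19.0% at IFIT1 and 75.8% and 51.0% against 31.7% and 0 at OAS3 (limma adjusted p = 0.844 and 0.834). H3K27ac was at 79.9% and 71.6% against 96.6% and 95.2% at NLRP1 and at 45.4% and 41.0% against 65.4% and 58.2% at OASL (limma adjusted p = 0.201 and 0.221).

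**Figure D4:**
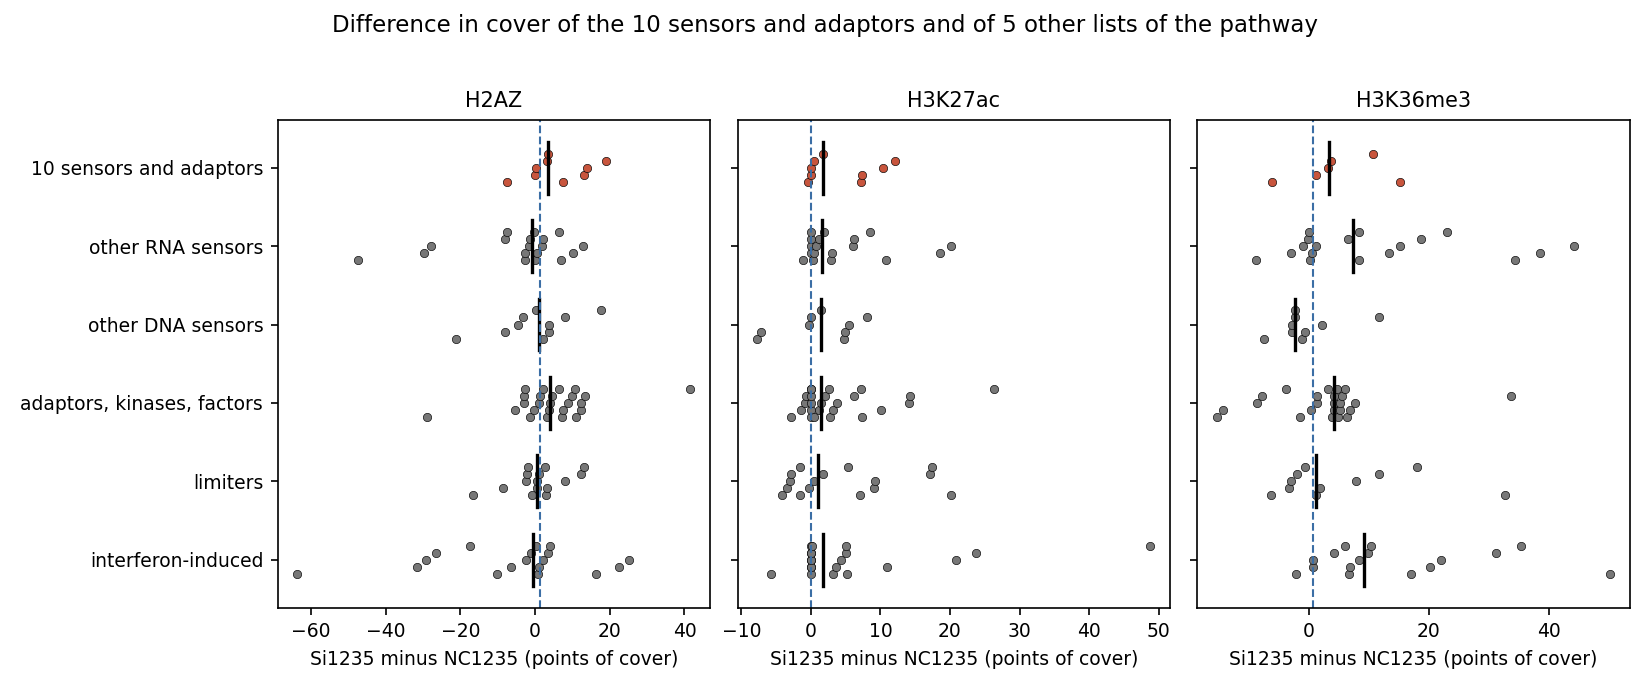
Difference in cover, Si1235 minus NC1235, in percentage points (horizontal axes) for each tested gene of the 10 sensors and adaptors (red) and of 5 other lists (grey), for H2AZ, H3K27ac and H3K36me3. Black bars are list medians and the dashed line is the median of all genes tested, 1.22, 0.0 and 0.69 points. For H3K36me3 the interferon-induced list has the highest median, 9.16 points, and the 10 genes have 3.38.

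Of 12 other DNA sensors, 10, 9 and 9 were tested for H2AZ, H3K27ac and H3K36me3 and 0 passed (limma). In each mark 1 had an unadjusted p under 0.05, against 5.94%, 14.0% and 7.94% of all genes. Both Si1235 libraries were above both NC1235 libraries at 1, 2 and 0 of those tested (20.9%, 23.3% and 20.3% of all genes). They were below both at 2, 0 and 1 (10.8%, 17.7% and 13.7% of all genes). The median differences were 1.15, 1.37 and −2.33 points. MRE11 had H2AZ of 68.7% and 69.5% in NC1235 and 47.8% and 48.4% in Si1235, XRCC5 had 53.2% and 36.7% against 62.2% and 63.1%, and HNRNPA2B1 had H3K36me3 of 82.1% and 80.2% against 73.6% and 73.8%. H3K27ac at PQBP1 and XRCC5 was 4.9 and 4.7 points higher in Si1235. The limma adjusted p-values of these 5 differences were 0.676, 0.858, 0.558, 0.201 and 0.386. Among 28 adaptors, ubiquitin ligases, kinases and factors, 0 of 25 tested passed for H2AZ and 0 of 24 for H3K36me3 (limma; 0.0% of all genes in each). An unadjusted p under 0.05 was reached by 1, 4 and 2 for H2AZ, H3K27ac and H3K36me3, against 5.94%, 14.0% and 7.94% of all genes. For H3K27ac 1 of 25 tested passed (limma; 0.441% of all genes). That 1 was IRF3, the factor that TBK1 activates, with 97.0% and 96.7% in NC1235 and 100% in both Si1235 libraries, 3.2 ± 0.11 points higher (SE; limma adjusted p = 0.0378). As at STING1, the full Si1235 windows have no spread. The IRF3 call ended with quantile normalization (adjusted p = 0.161), with the 2.5 kb window (0.14, 9.1 points higher), with the 0.5 kb window, which was full in all 4 libraries, and when Si1235 replicate 1 (0.137) or 2 (0.162) was left out. TANK, a scaffold of TBK1, had H2AZ of 64.3% and 22.5% against 93.2% and 77.0% and H3K36me3 of 60.4% and 53.8% against 43.9% and 39.7%. TRIM25, a ligase that acts on RIGI, had H2AZ of 59.8% and 69.6% against 53.0% and 18.4%. UNC93B1, which carries TLR3 to endosomes, had H3K36me3 of 7.0% and 0 against 45.0% and 29.5% (limma adjusted p = 0.155). H3K27ac was 14.2 points higher at RELA and 26.3 at TRAF2 (limma adjusted p = 0.314 and 0.547). In the order H2AZ, H3K27ac and H3K36me3, this list had both Si1235 libraries above both NC1235 libraries at 6, 9 and 7 genes (20.9%, 23.3% and 20.3% of all genes). It had both below at 1, 2 and 3 genes (10.8%, 17.7% and 13.7% of all genes). Its median differences were 3.98, 1.38 and 4.11 points.

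Of 18 genes listed as limiters of nucleic acid sensing, 0 of 15, 16 and 11 tested passed (limma). At an unadjusted p under 0.05, 1, 2 and 3 did, against 5.94%, 14.0% and 7.94% of all genes. Both Si1235 libraries were above both NC1235 libraries at 2, 7 and 5 genes of this list (20.9%, 23.3% and 20.3% of all genes). They were below both at 2, 3 and 0 (10.8%, 17.7% and 13.7% of all genes). The median differences were 0.43, 1.03 and 1.09 points. SAMHD1, which degrades the building blocks of DNA, had H3K36me3 of 59.6% and 40.5% in NC1235, against 85.6% and 79.8% in Si1235, and RNASEH2A had 13.0% and 9.5% against 28.2% and 30.3% (limma adjusted p = 0.231 and 0.278). ADARB1, the relative of ADAR, had H3K27ac of 44.3% and 43.8% against 59.2% and 63.8% (limma adjusted p = 0.14), CYLD had an H3K27ac difference of 20.1 points, and H2AZ differed by −16.5 points at MLKL and 13.1 at SKIC2. MLKL is an effector of cell death and not a limiter, and the counts and medians of this list include it. Among 25 interferon and interferon-induced genes, 0 of 18, 20 and 16 tested passed (limma; 5, 4 and 8 at an unadjusted p under 0.05). In H3K36me3 both Si1235 libraries were above the higher NC1235 library at 12 of those 16 and below at none (20.3% and 13.7% of all genes), with a median of 9.16 points. In H2AZ 2 of 18 were above and 5 below (20.9% and 10.8% of all genes), with a median of −0.45 points. In H3K27ac 9 of 20 were above and none below (23.3% and 17.7% of all genes), with a median of 1.71 points. For H3K36me3 HERC5 had 13.0% and 11.3% against 64.6% and 60.1% (limma adjusted p = 0.0831) and IFI44L 42.4% and 34.9% against 73.4% and 74.7%. IFI44 had H2AZ of 82.2% and 78.4% against 14.4% and 18.8%, and IFIT2 88.2% and 85.6% against 50.4% and 60.1% (limma adjusted p = 0.541 and 0.692). H3K27ac was at 35.6% and 42.2% against 100% and 75.4% at RSAD2 and at 0 in both NC1235 libraries against 24.4% and 23.0% at CXCL11 (limma adjusted p = 0.254 and 0.0899).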

How the data were processed

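The analysis started from 15 deposited peak lists, 1 per library, in hg38. Reads were aligned with Bowtie2 2.2.9 and peaks called with MACS2 (no version given), per the submitters' processing notes. HTSeq 2.0.3 and DESeq2 1.22.2 stand in those notes without a role. The authors' lists give peak positions, a fold enrichment (a linear ratio over local background) and −log10 p and −log10 q values. All lists held only peaks with a deposited −log10 q of at least 2.00029. The 2 input samples are not analysed here. Peak names in the H3K9ac lists carry another residue, and the labels were followed.

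The percent of each window under peaks was computed with Python 3.11.15 (pandas 2.3.3, numpy 2.4.6). Windows were 1 kb either side of the gene start, or, for H3K36me3, the gene body (protein-coding, 2 kb or longer). Where the promoter table lacked a gene, the end with more cover of the other promoter marks was used, a rule that gave the table's end for 89.7 to 90.1% of 15244 to 15979 checked genes. Genes whose mean cover was 5% or more were tested with limma 3.58.1 (R 4.3.3, trend, no replicate term), Si1235 minus NC1235, with Benjamini-Hochberg adjustment over all genes tested and a threshold of 0.05. Scripts were tested on simulated data. Pileups of 1500 weak peaks per list were solved from their deposited fold and p-value, with a tolerance of 0.002. The 10 genes and the pathway lists were chosen with earlier results of these data known. All 10 genes are described, and of the other lists each gene past the threshold and the 2 with the largest absolute difference per mark among those whose arms did not overlap, with RIGI named besides. The alternatives were a replicate block, quantile normalization, peaks with −log10 q of at least 5, equal peak numbers, other cover filters, windows of 0.5 and 2.5 kb and leaving out each library.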

Additional observations from a re-analysis of the deposited data

Results flagged for a closer look

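The ChIRP library lies outside the comparison of the arms, and 2 of the 10 start windows held a ChIRP peak, where 12.6% of 31684 gene windows did. ChIRP cover of the STING1 window was 48.3%, from peaks at −825 to −456 and at 253 to 848 bases, so the start itself was not under a peak. ChIRP cover of the ZBP1 window was 12.5%, from 1 peak at 33 to 282 bases. The other 8 windows were at 0. There is 1 ChIRP library and no control list for it is used here.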

How the results depend on the processing

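Over 275 comparisons of a difference at 1 of the 10 genes with its value under an alternative, 219 kept their direction and side of the threshold, 32 had a difference of 0 as reported or under the alternative and stayed short of the threshold, 21 turned sign and 3 passed. A difference of 0 in the 0.5 kb window replaced that of IFIH1, TLR3, EIF2AK2, ADAR and MAVS in H2AZ and of DHX58, EIF2AK2 and STING1 in H3K27ac. The 3 that passed were H3K27ac at STING1 (6.6 points after quantile normalization, 7.9 and 6.6 without NC1235 replicate 1 and 2). Signs turned for H2AZ with quantile normalization at IFIH1 (−1.0) and ADAR (−1.2), and with the 2.5 kb window at IFIH1 (−2.1), TLR3 (−0.2) and ADAR (−2.1). For H3K27ac they turned with quantile normalization at ADAR (−0.5), with the 0.5 kb window at TBK1 (2.6) and with the 2.5 kb window at STING1 (−3.2). For H3K36me3 the sign turned with quantile normalization at STING1 (−0.4). Leaving out 1 library turned signs as well. The range over the libraries left out was −2.9 to 3.1 at IFIH1, −6.2 to 32.4 at DHX58, −2.5 to 8.6 at TLR3 and −3.1 to 3.5 at ADAR for H2AZ, −0.5 to 1.2 at ADAR and −7.7 to 6.8 at TBK1 for H3K27ac, and −3.8 to 6.1 at STING1 and −13.3 to 0.9 at TBK1 for H3K36me3. With no change of sign it was 11.7 to 26.5 at EIF2AK2, −11.3 to −3.7 at MAVS, 4.4 to 10.5 at CGAS, 2.3 to 25.7 at STING1 and 1.7 to 5.0 at TBK1 for H2AZ, 5.3 to 18.9 at DHX58, 1.4 to 13.0 at EIF2AK2, 2.3 to 18.4 at TLR3 and 0.4 to 3.1 at CGAS for H3K27ac, and 10.4 to 19.9 at IFIH1, 1.0 to 5.3 at EIF2AK2, 0.8 to 6.3 at ADAR and 5.1 to 16.1 at MAVS for H3K36me3. Over all genes, H3K27ac calls numbered 68, 0 with the replicate block (limma; 1831 at an unadjusted p under 0.05), 12 with the 0.5 kb window, 4 with the 2.5 kb window and 126 to 316 without 1 library. They were mostly higher in Si1235 without an NC1235 library (308 of 316 and 221 of 224) and mostly lower without a Si1235 library (255 of 264 and 122 of 126). H3K36me3 calls numbered 0 (limma; 663 at an unadjusted p under 0.05), 93 after quantile normalization and 37 to 114 without 1 library. Where an arm is left with 1 library, that library is assumed to vary like the other arm. The cause of these shifts was not tested. H2AZ calls numbered 0 as reported (limma; 1031 at an unadjusted p under 0.05) and under each alternative, which says nothing about stability. The replicate block changed no call at the 10 genes and ended that of IRF3 (adjusted p = 0.327). Same-numbered libraries shared deviations with a correlation of 0.18 for H2AZ, 0.06 for H3K27ac and 0.3 for H3K36me3, over 2 pairs, which does not establish pairing. Depth is unknown, and full or empty windows limit what cover can show.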
